A study of Mus musculus with 12 samples.

Results

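The collagen genes are the 44 of 39174 gene identifiers whose symbol is Col, a number, the letter a and a chain number. They were taken by their symbols and not by a cut on measured values, though earlier results of these data were known at the time. Of the 44, 11 encode fibrillar chains, 8 encode chains of basement membranes and 25 encode other collagens. Of these 25, 9 are fibril-associated collagens (FACIT), 6 are beaded filament chains of type VI, 4 are transmembrane collagens and 6 are network-forming or remaining collagens. The libraries were made from total RNA of primary motoneurons grown from FVB mice, with the Lexogen mRNA-Seq Library Prep Kit V2. The control genotype was Smn+/+;SMN2. The other was Smn-/-;SMN2, a model of spinal muscular atrophy and named SMA below. Both thus carried the human SMN2 transgene, and SMA cultures lacked functional mouse Smn, whose product serves the assembly of splicing complexes. Cultures of each genotype were untreated or received R-Roscovitine at 0.5 µM. The compound blocks cyclin-dependent kinases and keeps presynaptic calcium channels open for longer. The resulting 4 groups had 3 libraries each, numbered 1 to 3 within a group. The labels name neither the age of the mice nor how long the compound was given. They also do not say whether each library had a culture of its own, so the p-values here rest on the spread among 3 libraries a group, part or all of which may be technical.

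Collagens are secreted or membrane-bound proteins whose chains wind into a helix of repeated glycine-containing units. Fibrillar collagens build the fibers of connective tissue, type IV collagens form the sheet-like scaffold of basement membranes, and FACIT and type VI collagens link fibers to the rest of the matrix. In the nervous system they come mainly from meninges, vessels, Schwann cells and fibroblasts, while a few such as the transmembrane Col25a1 are made by neurons, and basement membrane chains lie in the synaptic cleft of the neuromuscular junction.

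Expression is given in FPKM, a read count per length and depth that the authors deposited, at a depth of 19.5 to 28.7 M reads per library, recovered from the steps between low values. Smn1, the gene disrupted in SMA cultures, served as the check of the labels. It read 30.9, 41.2 and 51.2 FPKM in untreated control against 6.11, 7.19 and 8.58 FPKM in untreated SMA libraries, and 45.2, 38.2 and 39.2 FPKM against 6.82, 5.04 and 7.35 FPKM with treatment, with no overlap between genotypes (limma, adjusted p = 0.000321 and 0.000112). Several genes that define motoneurons were at or near 0. Mnx1 was listed at 0 in all 12 libraries, Chat reached 0.0605 FPKM and Isl1 0.845 FPKM at most. Pan-neuronal genes were abundant, with Map2 at 237 to 328 FPKM. Acta2 and Tagln, genes of the contractile cytoskeleton, read 1428 to 2625 FPKM and 603 to 952 FPKM, while the smooth muscle myosin Myh11 stayed at or below 0.161 FPKM. Of 9 endothelial genes, Kdr ran from 1.67 to 7.83 FPKM, Flt1, Esam and Pecam1 reached 0.916, 0.624 and 0.564 FPKM, and Tie1 was listed at 0 throughout. The remaining 4 stayed at or below 0.27 FPKM. In such bulk samples, fewer cells of a type and less RNA per cell cannot be told apart.

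Collagen mRNA was a small and uneven part of these transcriptomes. The 44 genes together took 0.0351% to 0.0726% of all FPKM in a library, and their sum ran from 259 to 499.9 FPKM. A few genes carried most of it. Col8a1, Col5a2 and Col11a1 together made 53.9% of all collagen FPKM over the 12 libraries, and the 8 genes with a mean of at least 10 FPKM made 82.8%. Fibrillar chains made a median of 46.0% of the collagen sum of a library, basement membrane chains 19.5% and the others 35.8%. At the low end, 16 collagens stayed below 1 FPKM in all 12 libraries, and 6 reached it in only 1 or 2. Their highest values ran from 0.0564 FPKM for Col28a1 to 2.93 FPKM for Col3a1. The 22 genes at 1 FPKM or more in at least 3 libraries were tested; they were 7 fibrillar, 6 basement membrane and 9 other collagens, and 17 of them were at 1 FPKM or more in all 12. The authors deposited with each value the interval that Cufflinks gave for it, whose half-width had a median of 2.25% of the value for Col8a1, 24.8% for Col22a1 and 46.1% for Col15a1.

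**Figure D1:**
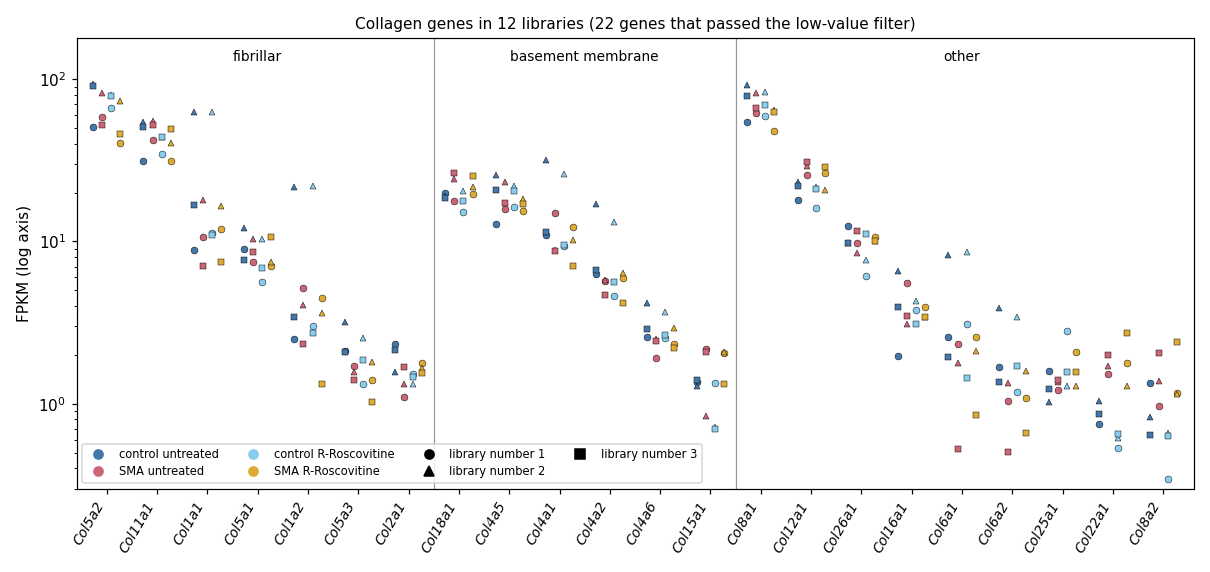
FPKM on a log axis of the 22 tested collagen genes in each of the 12 libraries, by group (colour) and library number (symbol), with fibrillar, basement membrane and other collagens apart. Col8a1 and Col5a2 are highest, and for Col1a1, Col1a2, Col4a1, Col4a2, Col6a1 and Col6a2 the triangles of both control groups lie above every other point.

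The sum of all 44 collagens was 259, 499.9 and 362 FPKM in untreated control libraries 1, 2 and 3, 304, 374 and 312 FPKM in untreated SMA, 269.6, 447 and 319 FPKM in treated control and 263, 317 and 292 FPKM in treated SMA libraries. Library 2 was highest in each of the 4 groups, and the ranges of all groups overlapped. Fibrillar chains alone summed to 108, 251 and 176 FPKM and 124, 225 and 148 FPKM in the control groups without and with treatment. They summed to 131, 174 and 127 FPKM and 102, 146 and 118 FPKM in the SMA groups. The spread was larger in control, with an SD of 71.5 and 53.0 FPKM against 26.2 and 22.3 FPKM (n = 3 each). For basement membrane chains the SD was 24.2 and 19.6 FPKM in control against 3.57 and 2.57 FPKM in SMA. All other lists of values below also follow libraries 1, 2 and 3.

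**Figure D2:**
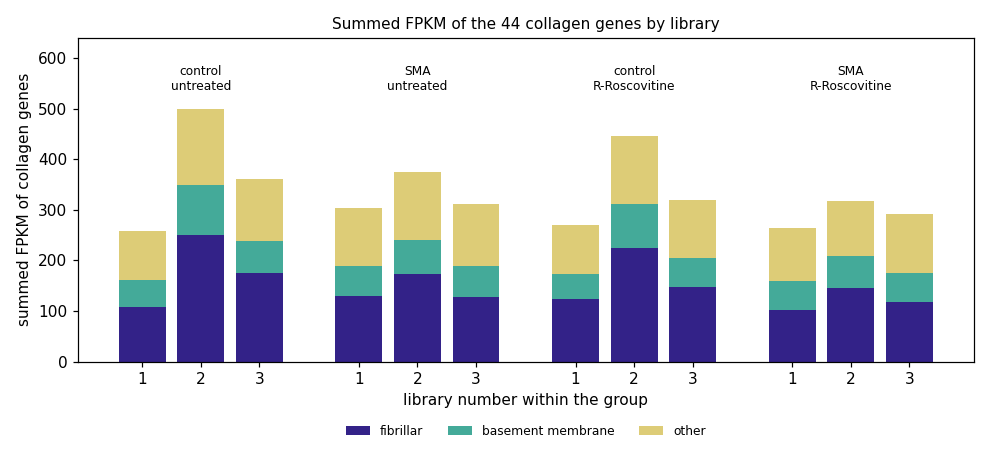
Summed FPKM of the 44 collagen genes in each library, stacked by fibrillar, basement membrane and other collagens; numbers under the bars are library numbers within a group. The tallest bars are library 2 of untreated control (499.9 FPKM) and of treated control (447 FPKM).

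Collagen genes next to each other on a chromosome often differed in level. Col5a2 (chr1:45374321-45503282, minus strand, GRCm38 as are all coordinates here) was the second most abundant collagen, yet its neighbour Col3a1 (chr1:45311538-45349706, plus strand), which ends 24614 bases away, had a mean of 0.600 FPKM against 67.8 FPKM. The type IV genes lie in head-to-head pairs. Col4a1 (chr8:11198423-11312826, minus strand) and Col4a2 (chr8:11312805-11449287, plus strand) start within the same 22 bases and had means of 13.5 and 7.19 FPKM. Whether the counting used strand is not stated, so reads from the shared bases could have gone to either gene. Col4a6 (chrX:141165403-141474076, minus strand) and Col4a5 (chrX:141475385-141689234, plus strand) face each other over 1308 bases and had means of 2.74 and 18.7 FPKM. Col4a4 and Col4a3, 71 bases apart on chromosome 1, were both near 0, with means of 0.159 and 0.202 FPKM.

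RefSeq promoter windows (build GRCm38.p6) were matched for 35 of the 44 genes. Their 250 bases before the start were searched on both strands for 3 common promoter motifs, the CCAAT box (CCAAT or ATTGG), the GC box (GGGCGG or CCGCCC) and the TATA box (TATAAA or TTTATA). The strings can share letters where matches adjoin. A GC box was in 22 of 38 collagen windows (57.9%), where 32.7% of all 32851 windows of that length held one. The CCAAT box was in 34.2% against 33.9% and the TATA box in 13.2% against 12.4%. Of the 4 sequences that follow, Col8a1 is the most abundant collagen here, and Col3a1 was near 0 beside the abundant Col5a2. Among the control libraries, Col5a1, Col1a2 and Col8a1 were highest in library 2 with and without treatment. Each sequence runs 5′ to 3′ on the gene's strand, with the motif letters in capitals. Col8a1 (chr16:57754738-57754987, minus strand) held 4 GC boxes, Col5a1 (chr2:27886175-27886424, plus strand) held 2, and Col3a1 (chr1:45311288-45311537, plus strand) held 1 TATA box and no GC box. For Col1a2 the 123 bases that overlap no GENCODE M21 exon are shown (chr6:4505370-4505492, plus strand), and they held 2 GC boxes. These matches are descriptions of letters, not of binding.
Col8a1: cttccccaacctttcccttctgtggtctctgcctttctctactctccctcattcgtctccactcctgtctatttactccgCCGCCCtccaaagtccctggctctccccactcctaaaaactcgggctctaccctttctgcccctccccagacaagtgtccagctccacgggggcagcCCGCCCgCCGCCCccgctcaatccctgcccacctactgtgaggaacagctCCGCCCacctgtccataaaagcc
Col5a1: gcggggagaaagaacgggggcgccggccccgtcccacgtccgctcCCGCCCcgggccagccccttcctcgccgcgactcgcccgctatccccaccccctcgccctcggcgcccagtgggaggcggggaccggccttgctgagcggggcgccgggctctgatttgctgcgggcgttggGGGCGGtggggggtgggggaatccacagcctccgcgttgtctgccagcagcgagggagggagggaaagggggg
Col1a2: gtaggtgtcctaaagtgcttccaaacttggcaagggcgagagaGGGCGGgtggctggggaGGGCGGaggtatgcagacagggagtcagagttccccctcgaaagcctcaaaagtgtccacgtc
Col3a1: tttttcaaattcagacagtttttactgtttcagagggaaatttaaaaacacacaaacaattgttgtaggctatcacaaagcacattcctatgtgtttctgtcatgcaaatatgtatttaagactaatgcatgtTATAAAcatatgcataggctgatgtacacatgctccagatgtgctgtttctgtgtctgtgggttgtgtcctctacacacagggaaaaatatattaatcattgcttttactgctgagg

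Among fibrillar chains, Col5a2 was highest in all libraries but treated SMA library 3, where Col11a1 was. Col11a1 came next in the others but for the control libraries numbered 2, where Col1a1 did. Col5a2, a type V chain that starts and limits the growth of type I fibers, read 51, 93.3 and 91.4 FPKM in untreated control libraries, 58.2, 82.6 and 52.3 FPKM in untreated SMA, 66, 80.4 and 78.6 FPKM in treated control and 40.3, 73.6 and 45.8 FPKM in treated SMA libraries. Col11a1, a chain of the minor fibrillar type XI, read 31.2, 54.2 and 50.8 FPKM in untreated control libraries, 42.2, 55.2 and 52.3 FPKM in untreated SMA, 34.8, 44.3 and 44 FPKM in treated control and 31.4, 40.4 and 49.6 FPKM in treated SMA libraries. No library of either gene stood far from the rest, and all groups overlapped. Their partners were far lower. Col5a1 (type V) ran from 5.6 to 12.1 FPKM, Col5a3 from 1.03 to 3.21 FPKM and Col11a2 (type XI) from 0.0858 to 1.09 FPKM, so Col5a2 was 4.3 to 12 times Col5a1 and Col11a1 46.6 to 643 times Col11a2 in FPKM. Col2a1, the main fibrillar chain of cartilage, ran from 1.1 to 2.34 FPKM.

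The chains of type I, the main collagen of bone, skin and tendon, differed widely between libraries. Col1a1 (chr11:94936224-94953042, plus strand) read 8.86, 63.1 and 16.8 FPKM in untreated control libraries, 10.6, 18.1 and 7.1 FPKM in untreated SMA, 11.3, 63.2 and 11 FPKM in treated control and 12, 16.6 and 7.45 FPKM in treated SMA libraries. Col1a2 (chr6:4504814-4541543, plus strand) read 2.52, 21.7 and 3.45 FPKM in untreated control libraries, 5.15, 4.08 and 2.32 FPKM in untreated SMA, 3.03, 21.9 and 2.72 FPKM in treated control and 4.47, 3.63 and 1.32 FPKM in treated SMA libraries. Control library 2, with and without treatment, was highest for both chains, at 63.1 and 63.2 FPKM for Col1a1 where no other library passed 18.1 FPKM. The ratio of Col1a1 to Col1a2 stayed between 2.06 and 5.64, with a median of 3.63, over libraries in which Col1a1 itself ran from 7.1 to 63.2 FPKM. Col3a1, the type III chain that forms thin fibers with type I in soft tissue, was lower than both in every library. It read 0.013, 0.489 and 0.152 FPKM in untreated control libraries, 2.93, 0.144 and 0 FPKM in untreated SMA, 0.0852, 0.452 and 0.108 FPKM in treated control and 2.67, 0.0944 and 0.0644 FPKM in treated SMA libraries. It was above 1 FPKM only in the SMA libraries numbered 1. Among control libraries it was highest in library 2 in both treatments, as both type I chains were. Among SMA libraries it was highest in library 1, as Col1a2 was and Col1a1 was not. The fibrillar chains Col24a1 and Col27a1 stayed at or below 0.321 and 0.873 FPKM.

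Of the basement membrane collagens, Col18a1, Col4a5 and Col4a1 had means of at least 10 FPKM. Col18a1 (chr10:77052178-77166548, minus strand), a proteoglycan collagen whose end piece is endostatin, read 19.8, 19.1 and 18.4 FPKM in untreated control libraries, 17.8, 24.4 and 26.4 FPKM in untreated SMA, 15.1, 20.6 and 17.8 FPKM in treated control and 19.5, 21.5 and 25.4 FPKM in treated SMA libraries. Col4a5, a type IV chain of specialised basement membranes, read 12.8, 25.5 and 20.7 FPKM in untreated control libraries, 15.8, 23.1 and 17.2 FPKM in untreated SMA, 16.3, 22 and 20.6 FPKM in treated control and 15.3, 18.4 and 17 FPKM in treated SMA libraries. Neither had a library far from the rest. Col4a1, which builds the common type IV network with Col4a2, read 11, 31.7 and 11.5 FPKM in untreated control libraries, 15.1, 8.92 and 8.77 FPKM in untreated SMA, 9.42, 26.1 and 9.47 FPKM in treated control and 12.2, 10.3 and 7.11 FPKM in treated SMA libraries. Col4a2 read 6.33, 17.1 and 6.69 FPKM in untreated control libraries, 5.73, 5.82 and 4.67 FPKM in untreated SMA, 4.61, 13.3 and 5.6 FPKM in treated control and 5.95, 6.43 and 4.16 FPKM in treated SMA libraries. Both were highest in the control libraries numbered 2, at 31.7 and 26.1 FPKM for Col4a1, where the next was 15.1 FPKM in untreated SMA library 1. The ratio of Col4a1 to Col4a2 was 1.53 to 2.63, and that of Col4a5 to Col4a6 4.97 to 9.29. Col4a6 ran from 1.92 to 4.2 FPKM and Col15a1, a relative of Col18a1, from 0.694 to 2.17 FPKM. Col4a3 and Col4a4, the other chains of the kidney and lung network, stayed at or below 0.362 and 0.492 FPKM, while Col4a6 was above 1 FPKM in all 12 libraries.

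Among the other collagens, Col8a1 and Col12a1 were highest. Col8a1 (chr16:57624258-57754737, minus strand), a short chain of the hexagonal networks of vessel walls and of the cornea, read 54.4, 92 and 79 FPKM in untreated control libraries, 61.9, 82.1 and 66.8 FPKM in untreated SMA, 59.2, 83.4 and 69.7 FPKM in treated control and 47.9, 64.5 and 63.2 FPKM in treated SMA libraries. Its partner Col8a2 ran from 0.345 to 2.39 FPKM, and Col8a1 was 26.5 to 172 times as high. Col12a1 (chr9:79598991-79718831, minus strand), a FACIT that coats type I fibers, read 17.9, 23.3 and 22.1 FPKM in untreated control libraries, 25.6, 29.1 and 30.9 FPKM in untreated SMA, 16, 21.7 and 21 FPKM in treated control and 26.5, 20.8 and 28.8 FPKM in treated SMA libraries. Without treatment its lowest SMA library was above the highest control library. Col26a1, a collagen with an EMI domain, ran from 6.15 to 12.5 FPKM, and the FACIT Col16a1 from 1.97 to 6.61 FPKM.

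The type VI chains, which assemble into beaded filaments around cells, were low. Col6a1 (chr10:76708792-76726168, minus strand) read 2.59, 8.24 and 1.95 FPKM in untreated control libraries, 2.33, 1.79 and 0.525 FPKM in untreated SMA, 3.09, 8.63 and 1.44 FPKM in treated control and 2.57, 2.11 and 0.849 FPKM in treated SMA libraries. Col6a2 (chr10:76595762-76623630, minus strand) read 1.68, 3.91 and 1.35 FPKM in untreated control libraries, 1.04, 1.35 and 0.501 FPKM in untreated SMA, 1.17, 3.43 and 1.71 FPKM in treated control and 1.08, 1.59 and 0.66 FPKM in treated SMA libraries. Again the control libraries numbered 2 were highest for both. Col6a3, the third chain of the common type VI molecule, passed 1 FPKM in 1 library, treated SMA library 1 at 1.63 FPKM, and Col6a4, Col6a5 and Col6a6 stayed at or below 0.593, 0.0693 and 0.0648 FPKM. Col25a1, a transmembrane collagen that neurons make, ran from 1.02 to 2.81 FPKM. The highest was treated control library 1, in a group whose other libraries read 1.29 and 1.56 FPKM. The type IX chains of cartilage, Col9a1, Col9a2 and Col9a3, reached 0.115, 0.284 and 1.16 FPKM at most. Col13a1 and Col17a1, transmembrane collagens of the neuromuscular junction and of skin, reached 0.16 and 0.162 FPKM. Col23a1 and Col20a1 passed 1 FPKM in 1 library each, while Col7a1, Col10a1, Col14a1, Col19a1 and Col28a1 passed it in none.

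Among the control libraries, most tested collagens were highest in library 2. It was the highest of 3 both without and with treatment for 15 of the 22 tested collagens (68.2%), where it was so for 13.4% of all 15114 tested genes. These were Col1a1, Col1a2, Col5a1, Col5a2, Col5a3 and Col11a1 of the fibrillar chains, Col4a1, Col4a2, Col4a5 and Col4a6 of the basement membrane chains, and Col6a1, Col6a2, Col8a1, Col12a1 and Col16a1. Control library 1 was the lowest in both treatments for 9 of the 22 (40.9%), against 15% of all tested genes. Col2a1 and Col25a1 went the other way, with control library 2 lowest and control library 1 highest in both. For 6 of the 22 (27.3%), control library 2 was more than 2 times the mean of control libraries 1 and 3 in both treatments, as it was for 1.29% of all tested genes. That ratio was 7.28 and 7.61 for Col1a2 without and with treatment, 4.92 and 5.65 for Col1a1, 3.63 and 3.81 for Col6a1, 2.83 and 2.76 for Col4a1, 2.62 and 2.6 for Col4a2 and 2.58 and 2.38 for Col6a2. In SMA the largest such shares were smaller. Library 2 was the highest in both treatments for 7 of the 22 (31.8%), where 20.5% of all tested genes were so. Library 3 was the lowest in both for 7 (31.8%), against 14.1% of all tested genes. These 7 were Col1a1, Col1a2, Col4a1, Col4a2, Col5a3, Col6a1 and Col6a2, among them all 6 genes whose ratios are given above. These positions are descriptions and were given no test.

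Other matrix genes and some markers of other cell types had the same highest library. Control library 2 was highest in both treatments for 13 of 14 tested interstitial matrix partners and 11 of 23 genes of collagen synthesis and folding. The same held for 7 of 14 genes of processing and crosslinking, 6 of 11 basement membrane partners and 5 of 7 of collagen breakdown and its inhibitors. Control library 2 was also highest for 4 of 8 tested collagen receptors and 6 of 7 tested fibroblast and mesenchyme markers. It was so for 2 of 2 Schwann cell, 2 of 2 motoneuron, 1 of 1 macrophage, 1 of 2 meninges and 1 of 2 pericyte markers. Lower shares were 1 of 3 cartilage and notochord, 1 of 5 smooth muscle, 2 of 8 astroglia and 1 of 8 progenitor markers. For neuron markers it was 0 of 7 and for endothelium 0 of 1. SMA library 1 was likewise highest in both treatments for 2 of 2 Schwann cell markers. It was so for 4 of 8 astroglia, 3 of 7 neuron and 3 of 7 fibroblast and mesenchyme markers. The same held for 1 of 2 meninges, 1 of 2 motoneuron and 1 of 8 progenitor markers, and for none in the other marker lists. The Schwann cell list summed to 11.3 FPKM in untreated and 6.88 FPKM in treated SMA library 1. In control library 2 it summed to 7.84 FPKM untreated and 6.92 FPKM treated. The 13 fibroblast and mesenchyme markers summed to 117 FPKM in untreated and 96.2 FPKM in treated control library 2, and to 39.4 to 56 FPKM in the other 10 libraries. Of these 13, Dcn, Fbln1, Lox and Lum also stand in the lists of matrix genes. Their levels differed widely. Lox ran from 5.98 to 49.7 FPKM, Prrx1 from 8.66 to 26.3 FPKM, Fbln1 from 5.74 to 12.2 FPKM, Thy1 from 5.03 to 19.4 FPKM, Dcn from 1.48 to 5.52 FPKM and Twist1 up to 2.08 FPKM, while Tcf21 was listed at 0 throughout and Pdgfra, Dpt and Fap stayed at or below 0.487 FPKM. The examples that follow were chosen after their values were seen. The small proteoglycan Bgn, which binds type I fibers, read 18, 107 and 33.3 FPKM in untreated control libraries, 40.2, 40.6 and 27.5 FPKM in untreated SMA, 19, 94.5 and 31.7 FPKM in treated control and 34.7, 34 and 21.4 FPKM in treated SMA libraries. Aldh1a2, a retinoic acid enzyme of meninges and other mesenchyme, read 3.5, 15.2 and 1.33 FPKM in untreated control libraries, 1.37, 1.38 and 0.699 FPKM in untreated SMA, 2.09, 18.1 and 0.795 FPKM in treated control and 0.789, 1.14 and 0.566 FPKM in treated SMA libraries. The 8 meninges markers summed to 18.4 and 23 FPKM in control library 2 and to 3.67 to 10.7 FPKM in the others, with Slc22a6 at 0 and Slc13a4 at or below 0.0769 FPKM. Aldh1a2 made most of both sums in control library 2. Ptgds, the only other meninges marker tested, was there 0.61 times the mean of control libraries 1 and 3 untreated. With treatment it was 2.08 times that mean. The SMA libraries numbered 1, in which Col3a1 passed 1 FPKM, were also highest for Lum, a small proteoglycan of fibroblasts, at 2.01 and 3.46 FPKM with at most 0.173 FPKM in any other library. They were highest too for Postn, a matrix protein of mesenchyme, at 15 and 5.8 FPKM with at most 2.55 FPKM in the others. The part of other cell types in these collagen levels was not tested.

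**Figure D3:**
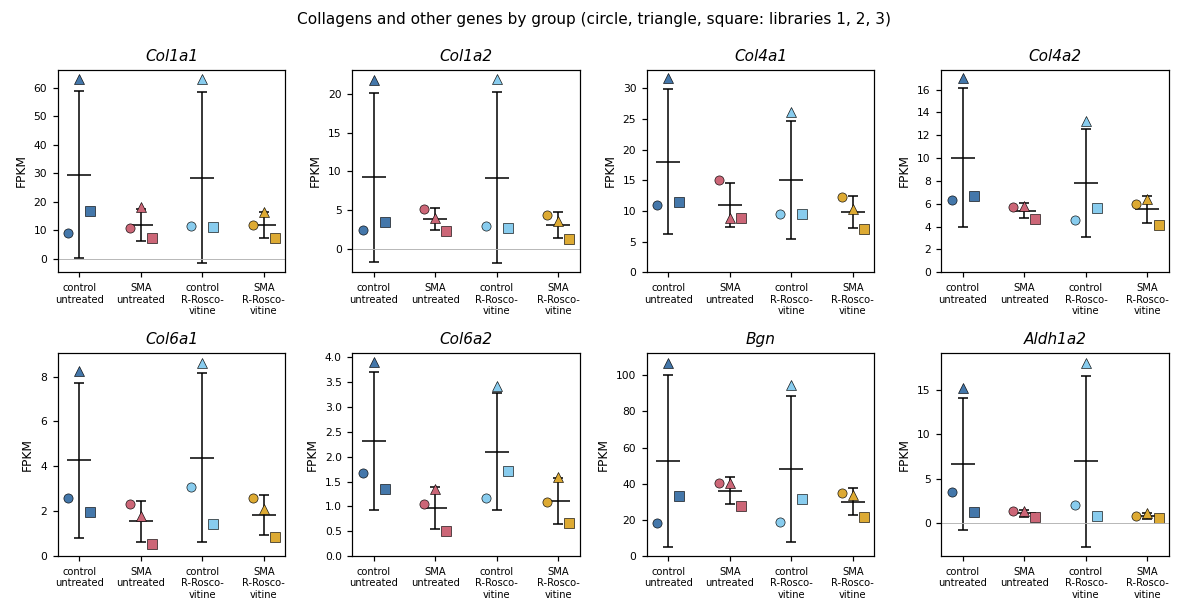
FPKM of 6 collagens and of Bgn and Aldh1a2 in each library by group; circles, triangles and squares are libraries 1, 2 and 3, and bars show the mean and SD of 3 libraries. In every panel the triangles of the control groups are the highest points, such as 63.1 and 63.2 FPKM for Col1a1.

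Between genotypes, 1 collagen passed the test. Col22a1 (chr15:71795795-72034227, minus strand), a FACIT of tissue junctions such as that of muscle and tendon, rose in SMA cultures. It read 0.747, 1.04 and 0.863 FPKM in untreated control libraries, 1.53, 1.7 and 2.01 FPKM in untreated SMA, 0.53, 0.618 and 0.652 FPKM in treated control and 1.79, 1.29 and 2.72 FPKM in treated SMA libraries. It reached 1 FPKM in 7 libraries, of which only untreated control library 2 was a control. Col22a1 thus passed the low-value filter through the SMA groups, where it was higher. Every SMA library was above every control library within each treatment, with means of 1.75 ± 0.243 against 0.884 ± 0.148 FPKM untreated and 1.93 ± 0.729 against 0.6 ± 0.063 FPKM treated (SD, n = 3). Averaged over treatments, SMA minus control was 0.71 ± 0.13 (SE) on the scale of log2(scaled FPKM + 1), where low genes change by less than on FPKM itself (limma, adjusted p = 0.0206). With a pseudocount of 0.1 FPKM in place of 1 it was 1.22, and with one of 5 FPKM it was 0.25. By this test 1 of 22 tested collagens was called (4.55%), where 4.42% of all tested genes were called in that comparison and 2.79% were called higher, so the share of collagens was near the background. The test takes treated and untreated libraries of 1 number as independent. With 1 mean per pair of such libraries the limma adjusted p of Col22a1 was 0.179 and the call was lost. Without the low-value filter its limma adjusted p was 0.0836, and the call was lost there too. It was also lost when untreated SMA library 1 or 3, treated SMA library 1 or 3, or treated control library 1 was left out, at limma adjusted p = 0.0503 to 0.0678, and when both libraries of control 1, control 2, SMA 1 or SMA 3 were, at limma adjusted p = 0.0619 to 0.16.

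Within each treatment no collagen passed (limma, adjusted p under 0.05), and 1 of the 15114 tested genes did, Smn1 (0.00662% in each of the 2 comparisons). At an unadjusted p under 0.05 there were 2 collagens and 2119 genes untreated and 4 collagens and 1946 genes treated. Col22a1 differed by 0.56 ± 0.18 (SE) untreated (limma, adjusted p = 0.236) and 0.85 ± 0.18 (SE) treated (limma, adjusted p = 0.167). With the library number as a block of 3 levels, the treated difference had limma adjusted p = 0.0402. Whether the numbers pair libraries across genotypes is not settled. Untreated, Col12a1 differed by 0.46 ± 0.17 (SE, limma, adjusted p = 0.272) and Col18a1 by 0.27 ± 0.16 (SE, limma, adjusted p = 0.445). Lower values in SMA were -0.68 ± 0.32 (SE) for Col6a2, -0.40 ± 0.20 (SE) for Col5a3 and -0.32 ± 0.15 (SE) for Col2a1 (limma, adjusted p = 0.363, 0.387 and 0.37). With treatment, Col8a2 differed by 0.71 ± 0.23 (SE) and Col15a1 by 0.57 ± 0.23 (SE, limma, adjusted p = 0.244 and 0.315). On the lower side were Col5a2 at -0.51 ± 0.26 (SE), Col6a2 at -0.51 ± 0.32 (SE) and Col6a1 at -0.73 ± 0.52 (SE, limma, adjusted p = 0.426, 0.533 and 0.582).

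Averaged over treatments, the next largest by p were Col12a1, at 0.42 ± 0.12 (SE, limma, adjusted p = 0.0613), and Col8a2, at 0.54 ± 0.16 (SE, limma, adjusted p = 0.0747). Col8a2 read 1.35, 0.829 and 0.643 FPKM in untreated control libraries, 0.97, 1.37 and 2.07 FPKM in untreated SMA, 0.345, 0.656 and 0.633 FPKM in treated control and 1.17, 1.15 and 2.39 FPKM in treated SMA libraries. Its treated groups did not overlap and its untreated groups did. Col8a2 reached 1 FPKM in 6 libraries, of which only untreated control library 1 was a control, so it too passed the filter through SMA libraries. Col15a1 read 1.35, 1.29 and 1.4 FPKM in untreated control libraries, 2.17, 0.837 and 2.08 FPKM in untreated SMA, 1.34, 0.72 and 0.694 FPKM in treated control and 2.05, 2.08 and 1.33 FPKM in treated SMA libraries, with overlap in both treatments. Lower in SMA were Col6a2 at -0.59 ± 0.23 (SE), Col6a1 at -0.82 ± 0.37 (SE) and Col5a3 at -0.33 ± 0.14 (SE, limma, adjusted p = 0.143, 0.204 and 0.191). The type I chains had the widest errors, -0.80 ± 0.49 (SE) for Col1a1 and -0.70 ± 0.52 (SE) for Col1a2 (limma, adjusted p = 0.357 and 0.452). By family, 5 of 7 fibrillar chains were lower in SMA (median -0.33), 4 of 6 basement membrane chains were lower (median -0.17) and 4 of 9 others were lower (median 0.024). All 22 had a median of -0.091 and all tested genes -0.0095. The lower side leaned on control library 2. That number was picked because most collagens were highest there among the controls, so leaving it out had to raise most of the differences. The values without it describe its weight and are no test of genotype. Without the untreated and treated control libraries 2, the median of the 22 was 0.047, 13 were higher and 9 lower, and 4 had turned sign. By family the medians there were -0.0019 for fibrillar, 0.047 for basement membrane and 0.10 for other collagens. Col1a1 went to -0.0019 ± 0.26 (SE), Col1a2 to 0.16 ± 0.25, Col4a1 to 0.020 ± 0.18 and Col4a2 to -0.035 ± 0.13. Col6a1 went to -0.28 ± 0.26 and Col6a2 to -0.28 ± 0.17. Col22a1 was 0.75 ± 0.16 there, Col12a1 0.51 ± 0.13 and Col8a2 0.56 ± 0.19 (limma, adjusted p = 0.0619, 0.0766 and 0.138).

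Groups without overlap were counted as well. Untreated, Col12a1 and Col22a1 were higher in every SMA library (2 of 22, 9.09%), where 7.83% of all tested genes were so, and Col4a2, Col4a6, Col5a3 and Col6a2 were lower in every SMA library (4 of 22, 18.2%), where 12.4% were so. Treated, Col2a1, Col8a2 and Col22a1 were higher (3 of 22, 13.6%, against 8.9%) and none was lower (against 8.84%). Col22a1 alone among the 22 was apart in both treatments (4.55%, against 2.46% of all tested genes on the higher side, and none on the lower side, against 2.83%). Col2a1 read 2.34, 1.57 and 2.15 FPKM in untreated control libraries, 1.1, 1.33 and 1.69 FPKM in untreated SMA, 1.53, 1.33 and 1.47 FPKM in treated control and 1.79, 1.66 and 1.54 FPKM in treated SMA libraries, higher in untreated control than in untreated SMA on average and lower with treatment. Col4a6 read 2.57, 4.2 and 2.9 FPKM in untreated control libraries, 1.92, 2.49 and 2.43 FPKM in untreated SMA, 2.53, 3.69 and 2.66 FPKM in treated control and 2.34, 2.94 and 2.22 FPKM in treated SMA libraries. Col5a3 read 2.12, 3.21 and 2.08 FPKM in untreated control libraries, 1.72, 1.57 and 1.4 FPKM in untreated SMA, 1.33, 2.53 and 1.87 FPKM in treated control and 1.4, 1.8 and 1.03 FPKM in treated SMA libraries. Each of these 3 genes overlapped between genotypes in the other treatment.

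**Figure D4:**
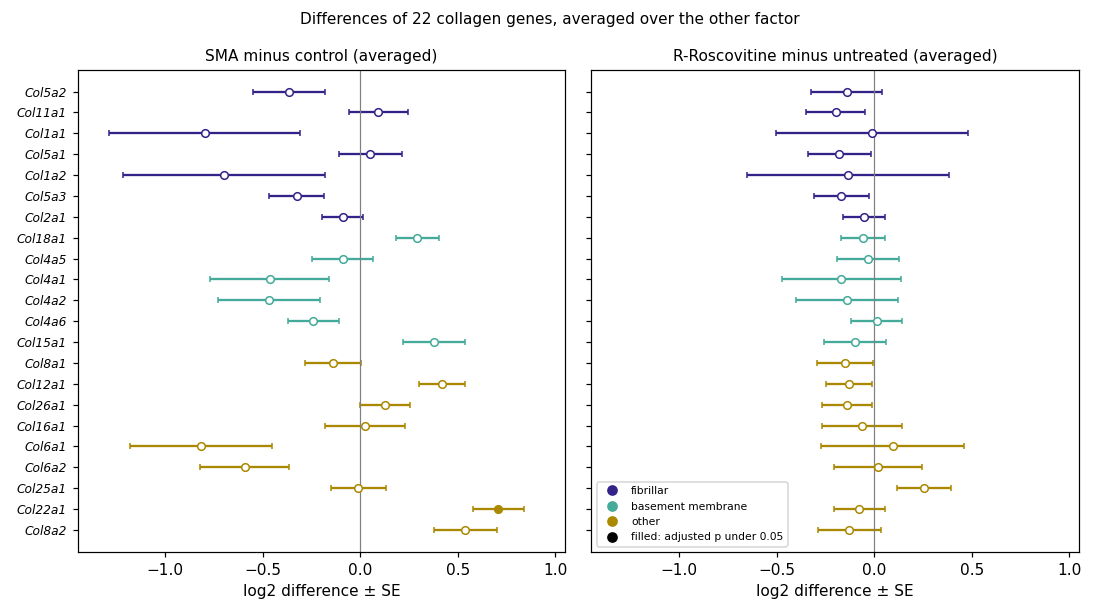
Log2 differences with standard errors of the 22 tested collagens, SMA minus control averaged over treatments on the left and R-Roscovitine minus untreated averaged over genotypes on the right; colours mark families and a filled symbol an adjusted p under 0.05. Col22a1 (0.71 ± 0.13) is the only filled symbol, and Col1a1, Col1a2 and Col6a1 have the longest bars.

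Markers of astroglia and neural progenitors were higher in SMA cultures, as Col22a1 was. The 8 astroglia markers summed to 487 to 1046 FPKM in untreated SMA against 267 to 371 FPKM in untreated control libraries, and to 336 to 846 against 281 to 355 FPKM with treatment, where the ranges overlapped. The 8 progenitor markers summed to 205 to 224 against 158 to 169 FPKM untreated and to 171 to 215 against 119 to 160 FPKM treated, with no overlap. Averaged over treatments 5 of the 8 astroglia markers rose, Slc1a3, Fabp7, Gfap, Mlc1 and Kcnj10, and 5 of 8 progenitor markers rose, Sox1, Sox2, Notch1, Olig2 and Nkx2-2, where 2.79% of all tested genes were called higher. With 1 mean per pair of libraries Smn1 alone was called, so none of the marker calls in this paragraph held there. Kcnj10, a glial potassium channel, read 1.93, 0.671 and 2.14 FPKM in untreated control libraries, 15.1, 8.02 and 18 FPKM in untreated SMA, 0.364, 0.607 and 2.08 FPKM in treated control and 12.9, 3.82 and 17.1 FPKM in treated SMA libraries and differed by 2.52 ± 0.33 (SE, limma, adjusted p = 0.00942). None of these 16 markers was at 0 in all libraries, and each reached 1 FPKM in at least 1. Among neuron markers 1 of 7 fell, Syn1, by 0.72 on the log2 scale (limma, adjusted p = 0.0239). Of 2 tested pericyte markers Notch3 rose, of 3 cartilage and notochord markers Sox9 rose, and of 2 motoneuron markers Chodl fell. No call was made among 7 fibroblast, 5 smooth muscle, 2 meninges, 2 Schwann cell, 1 endothelium and 1 macrophage markers tested. The part of glial and progenitor cells in the Col22a1 difference was not tested.

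**Figure D5:**
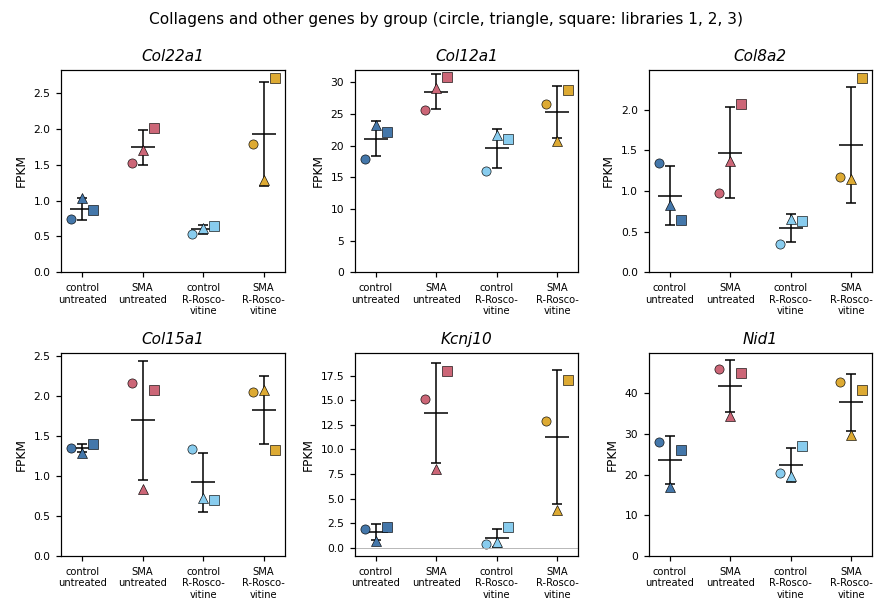
FPKM of the collagens Col22a1, Col12a1, Col8a2 and Col15a1, of the glial channel gene Kcnj10 and of the basement membrane gene Nid1 in each library by group; circles, triangles and squares are libraries 1, 2 and 3, and bars show the mean and SD of 3 libraries. For Col22a1 the 3 SMA points lie above the 3 control points without and with R-Roscovitine.

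No collagen passed the test for R-Roscovitine. None was called in control cultures, in SMA cultures or averaged over genotypes, and none in the interaction (limma, adjusted p under 0.05), where 0% of all 15114 tested genes were called in each. At an unadjusted p under 0.05 there were 0 collagens in each of the 4 comparisons, and 205, 377, 253 and 310 of all genes. Averaged over genotypes, 18 of 22 collagens and 7281 of all 15114 tested genes were lower with the compound, with medians of -0.11 and 0.0051. All 7 fibrillar chains were on the lower side (median -0.14), as were 5 of 6 basement membrane chains (median -0.077) and 6 of 9 others (median -0.076). The count of basement membrane chains was 6 of 6 with quantile normalization and 4 of 6 without both libraries of control 2. The medians were -0.082 in control and -0.010 in SMA. The one in control turned to 0.13 when untreated control library 2 was left out. Libraries of 1 number and genotype, treated and untreated, form 6 pairs. No collagen was lower with the compound in all 6, and none was higher in all 6, where 2.38% and 2.06% of all tested genes were. None moved opposite ways in every pair of the genotypes, where 2.96% of all tested genes did.

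The largest of these differences were small. In control cultures Col2a1 differed by -0.28 ± 0.15 (SE), Col26a1 by -0.33 ± 0.18 (SE), Col8a2 by -0.30 ± 0.23 (SE) and Col25a1 by 0.33 ± 0.20 (SE, limma, adjusted p = 0.9997 for each). Col26a1 read 12.5, 9.83 and 9.83 FPKM in untreated control libraries, 9.78, 8.43 and 11.6 FPKM in untreated SMA, 6.15, 7.74 and 11.1 FPKM in treated control and 10.6, 10.1 and 10.02 FPKM in treated SMA libraries. Col25a1 read 1.58, 1.02 and 1.23 FPKM in untreated control libraries, 1.22, 1.37 and 1.41 FPKM in untreated SMA, 2.81, 1.29 and 1.56 FPKM in treated control and 2.09, 1.3 and 1.57 FPKM in treated SMA libraries. Col4a5 and Col5a2 were also on the higher side in control, at 0.062 ± 0.22 (SE) and 0.0057 ± 0.26 (SE), both well inside their error, and Col5a2 turned to the lower side without scaling between libraries (-0.020) or with quantile normalization (-0.014). For Col25a1 the treated value was the higher in 3 of 3 control pairs, and treated control library 1 stood above all others. In SMA cultures Col11a1 differed by -0.31 ± 0.22 (SE), Col8a1 by -0.26 ± 0.20 (SE) and Col5a2 by -0.29 ± 0.26 (SE), and on the higher side Col2a1 by 0.17 ± 0.15 (SE) and Col25a1 by 0.18 ± 0.20 (SE, limma, adjusted p = 0.999 for each). Taking pairs of libraries of the same number as a block, Col11a1 was -0.31 ± 0.12 and Col8a1 -0.26 ± 0.10 in SMA, and Col4a2 was -0.29 ± 0.11 in control (SE, limma, adjusted p = 0.66, 0.66 and 0.929). The groups did not overlap for Col2a1 and Col22a1 in control, both lower with the compound (2 of 22, 9.09%, against 3.07% of all tested genes, and none higher, against 1.52%), and for no collagen in SMA (against 4.97% lower and 6.15% higher). None was apart in both genotypes, where 0.0794% of all tested genes were lower in both and 0.0794% higher. The interaction was largest by p for Col2a1 (0.45 ± 0.22 SE, limma, adjusted p = 1), and for Col26a1 and Col15a1 it was 0.38 ± 0.26 (SE) and 0.39 ± 0.32 (SE). On the other side it was -0.30 ± 0.37 (SE) for Col5a2, -0.22 ± 0.29 (SE) for Col8a1 and -0.22 ± 0.30 (SE) for Col11a1. Averaged over genotypes, the largest by p were Col25a1 at 0.25 ± 0.14 (SE) on the higher side and Col11a1 at -0.20 ± 0.15 (SE), Col5a3 at -0.17 ± 0.14 (SE) and Col5a1 at -0.18 ± 0.16 (SE) on the lower (limma, adjusted p = 0.9999 for each). Col6a1 and Col4a6, next on the higher side, were at 0.094 ± 0.37 (SE) and 0.013 ± 0.13 (SE), and Col4a6 lay on the lower side with quantile normalization (-0.00026).

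The enzymes and partners of collagens were read in lists set by function, where 4.42% of all tested genes were called. Of 23 tested genes of collagen synthesis and folding, 2 rose in SMA averaged over treatments and none fell: P4ha3, a subunit of collagen prolyl hydroxylase (0.76 ± 0.19 SE, limma, adjusted p = 0.0444), and Plod2, a lysyl hydroxylase (0.47 ± 0.12 SE, limma, adjusted p = 0.0485). Plod2 read 54, 70.1 and 80.2 FPKM in untreated control libraries, 101, 96.8 and 99.6 FPKM in untreated SMA, 52, 65.5 and 72.7 FPKM in treated control and 79.9, 66.2 and 91.3 FPKM in treated SMA libraries. The procollagen chaperone Serpinh1 ran from 149.6 to 269 FPKM with no call. Of 14 tested genes of processing and crosslinking 1 rose, Bmp1, the protease that trims fibrillar procollagens (0.64 ± 0.13 SE, limma, adjusted p = 0.0255). The crosslinking enzyme Lox differed by -1.22 ± 0.36 (SE, limma, adjusted p = 0.0724). Of 8 tested collagen receptors 2 rose: Ddr1, a receptor tyrosine kinase (0.49 ± 0.10 SE, limma, adjusted p = 0.0308), and Gpr56, an adhesion receptor that binds type III collagen (1.01 ± 0.21 SE, limma, adjusted p = 0.0281). Of 7 tested genes in the list of collagen breakdown, 6 were lower and none was called (median -0.26). This list holds proteases and also the Timp genes, which encode their inhibitors, so its direction does not tell whether breakdown was lower. Control library 2 was highest of the 3 control libraries in both treatments for 5 of the 7.

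Of 11 tested basement membrane partners 1 rose, Nid1, which links laminin to type IV collagen. Nid1 read 28.1, 17 and 25.9 FPKM in untreated control libraries, 46, 34.3 and 44.9 FPKM in untreated SMA, 20.3, 19.7 and 27.1 FPKM in treated control and 42.7, 29.8 and 40.9 FPKM in treated SMA libraries, with no overlap between genotypes in either treatment (0.80 ± 0.14 SE, limma, adjusted p = 0.0191). The laminin chain Lama1 differed by 0.76 ± 0.22 (SE, limma, adjusted p = 0.0711). Of 14 tested interstitial matrix partners 1 fell, Fbln5, an elastic fiber protein (-1.15 ± 0.29 SE, limma, adjusted p = 0.0446), and Tnc, a tenascin, was at -0.68 ± 0.18 (SE, limma, adjusted p = 0.0522). With 1 mean per pair no gene but Smn1 was called in that comparison, so these calls too rest on taking the libraries of a pair as independent. Within each treatment and with R-Roscovitine no gene of these 6 lists was called (limma, adjusted p under 0.05).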

How the data were processed

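Gene expression was measured by RNA sequencing in 12 libraries of cultured mouse motoneurons, 3 in each of 4 groups. The authors deposited, per library, a Cufflinks table of FPKM, fragments scaled to transcript length and library depth, on the genome build GRCm38. FastQC 0.10.1, Trim Galore 0.4.0 and Cufflinks 2.2.1 are named per the submitters' processing notes. The aligner's settings, read length, strand setting and annotation were not given in the sources used here. Libraries were grouped by their labels.

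Genes at 1 FPKM or more in at least 3 of 12 libraries (15114, with 22 collagens) were scaled by median-of-ratios factors and tested as log2(scaled FPKM + 1) with limma 3.58.1 in R 4.3.3, in lmFit and eBayes with a trend over all 4 groups and Benjamini-Hochberg adjustment over all tested genes at 0.05, after the scripts were tested on simulated data. The simulated libraries were independent of each other, so that check could not show how the test behaves where libraries form pairs. Summaries used Python 3.11.15 and pandas 2.3.3, figures matplotlib 3.10.9. Levels are unscaled FPKM. The step of low FPKM values per fragment gave the depth of 19.5 to 28.7 M reads, which sets the precision of low genes. Gene positions are those of the files.

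Named with values are collagens with a mean of at least 10 FPKM, those called in any comparison and the 3 with the lowest p in each direction of each comparison. Partner genes were eligible when called or among the 2 with the lowest p in each direction of their list, and not every eligible one is described. The lists cover collagen synthesis and folding, processing and crosslinking, receptors, breakdown with its inhibitors, basement membrane partners and interstitial matrix partners. Marker lists cover fibroblast, pericyte, smooth muscle, endothelium, meninges, cartilage and notochord, Schwann cell, astroglia, neural progenitor, macrophage, neuron and motoneuron. Members and lists were chosen with earlier results of these data known.

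Whether library numbers pair the libraries was tested by correlating deviations from group means over the tested genes. Treated and untreated libraries of 1 number correlated at 0.22, 0.57 and 0.31 in control and 0.55, 0.50 and 0.42 in SMA, and were taken as pairs in alternative fits. Across genotypes the same numbers correlated at -0.054 to 0.31 and different numbers at -0.28 to 0.19. These ranges overlap, so a pairing across genotypes is not settled. The main fit used none, and the block of 3 numbers was an alternative. The other alternatives were pseudocounts, filters, scalings, library weights, fits of 2 groups, left-out libraries and, chosen after seeing the data, a test without small RNA genes.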

Additional observations from a re-analysis of the deposited data

How the results depend on the processing

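The 22 collagens below the low-value filter were tested only in the alternative without it. With 3 libraries a group, the spread of the type I chains was wide, and the differences read for them could not be told from it.

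The count of collagens called in the genotype comparison averaged over treatments was 1. It was 0 without the low-value filter (Col22a1 adjusted p = 0.0836 by limma), 0 with a filter at 5 FPKM, which leaves Col22a1 untested, 6 with library weights and 5 with the library number as a block of 3 levels. With 1 mean per pair of treated and untreated libraries of the same genotype and number, it was 0. Leaving out libraries gave 0 to 3. The 6 called with library weights were Col12a1, Col22a1, Col5a2, Col5a3, Col6a2 and Col8a2, and the 5 called with the number block were Col12a1, Col22a1, Col6a1, Col6a2 and Col8a2. Over these alternatives the number of all genes called ran from 1 to 1953, against 668. In the genotype comparison with treatment the count went from 0 to 1 with the number block, and to 0 to 1 with libraries left out. The difference of Col22a1 stayed positive in every alternative run, at 0.58 to 0.80 with libraries left out, 1.22 with a pseudocount of 0.1 FPKM and 0.25 with one of 5 FPKM.

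The median of the collagens for R-Roscovitine in control was -0.29 with library weights and -0.27 to 0.13 with libraries left out. The median for genotype without treatment ran from -0.27 to 0.065 with libraries left out, and that of the interaction from -0.15 to 0.31. Single differences near 0 changed sign. For R-Roscovitine in control, Col4a5 was -0.19 with library weights and -0.22 to 0.29 with libraries left out. Col5a2 was -0.020 without scaling, -0.014 with quantile normalization, -0.20 with library weights and -0.29 to 0.18 with libraries left out. For R-Roscovitine averaged over genotypes, Col6a1 was -0.32 with library weights and -0.18 to 0.35 with libraries left out, and Col4a6 was -0.00026 with quantile normalization, -0.13 with library weights and -0.056 to 0.10 with libraries left out. In the interaction, leaving out libraries gave -0.40 to 0.0053 for Col8a1 and -0.39 to 0.033 for Col11a1. The cause was not tested. The pair block changed no call in the treatment comparisons. Of the recomputed counts and medians, 386 stayed within 1.5 times or within the spread of the libraries and 24 did not.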
